A study of Mus musculus with 12 samples.

Results

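The 10 genes described here encode acute-phase plasma proteins. They include the serum amyloid A genes *Saa1*, *Saa2* and *Saa3*, the pentraxin genes *Crp* and *Apcs*, and the orosomucoid genes *Orm1* and *Orm2*. The others encode the hemoglobin-binding haptoglobin (*Hp*), the heme-binding hemopexin (*Hpx*) and lipocalin 2 (*Lcn2*). The genes were chosen by symbol and are 10 of the 24411 genes in the table of liver read counts. All 10 passed the filter on low counts, which 13922 genes passed. Liver mRNA came from 3 genotypes with 3 mice each at 3 months of age. Every mouse, controls included, carried *Atg7* flox/flox, in which the autophagy gene *Atg7* can be cut out by the Cre recombinase, on a C57BL/6 background. The controls (cont.) carried no Cre. *Atg7*-KO mice also carried Alb-Cre, which is driven by the albumin promoter and acts in hepatocytes. Which liver cells kept *Atg7* was not measured here. *Atg7*-KO;p62T352A mice carried in addition 2 copies of a T352A exchange in the endogenous p62 gene (*Sqstm1*), made by prime editing in embryonic stem cells. The exchange was chosen so that KEAP1, the inhibitor of the transcription factor NRF2, is not retained in p62 bodies. A set of p62T352A mice with intact *Atg7* was not analysed here.

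The acute phase is the change in plasma proteins made by the liver after infection or injury. Interleukin-6, acting through its receptor and STAT3, and interleukin-1 and TNF, acting through NF-kB, switch on hepatocyte genes together with the C/EBP transcription factors, while albumin and other carrier proteins are made less. Serum amyloid A proteins travel on high-density lipoprotein, pentraxins and orosomucoids bind microbial surfaces or small molecules, haptoglobin and hemopexin capture free hemoglobin and heme, and lipocalin 2 binds iron-carrying siderophores.

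The libraries held 9671080 to 23285132 counts. Levels are given as normalized CPM, counts scaled to library size (CPM) by edgeR's TMM method, with the mice in the order 1, 2 and 3. *Atg7* was at 46.4, 44.2 and 55.4 in cont., 10.1, 9.57 and 12.0 in *Atg7*-KO and 29.7, 27.4 and 29.5 in *Atg7*-KO;p62T352A mice. The level in *Atg7*-KO;p62T352A livers lay 2.73-fold above that in *Atg7*-KO livers and at 0.594 of the cont. level, without overlap between any of the genotypes. *Sqstm1* was at 387 ± 103, 914 ± 44.2 and 545 ± 71.1 (mean ± SD, n = 3 each, in the same order of genotypes). The 8 hepatocyte markers were all detected, and their summed level was 77128 to 135080 CPM in cont., 37295 to 39613 in *Atg7*-KO mice and 111297 to 129272 in *Atg7*-KO;p62T352A mice. In bulk tissue, fewer cells of a type and less RNA per cell cannot be told apart. The mice numbered 1 stood apart from the other two of each genotype in *Xist*, the transcript of X inactivation, with 7 to 28 counts against 8578 to 18335, and the labels give no sex. The Y-linked *Ddx3y* had 1190, 962 and 988 counts in the mice numbered 1 (cont., *Atg7*-KO and *Atg7*-KO;p62T352A). It had 250, 57 and 117 in those numbered 2 and 55, 9 and 45 in those numbered 3. *Uty*, *Kdm5d* and *Eif2s3y* fell in the same order. The source of Y-linked counts in mice high in *Xist* was not tested. Where leaving out the mice numbered 1 changed the call or direction of 1 of the 10 genes, or moved a called fold by over 1.5 times, that value is given. The labels do not say that the mice came from separate litters, and the p-values measure only the spread between these mice.

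A gene was called higher or lower at a false discovery rate (FDR) under 0.05 and a fold change over 1.5 in edgeR's quasi-likelihood test, with the FDR adjusted by the Benjamini-Hochberg method over all 13922 genes. In *Atg7*-KO against cont. livers, 1 of the 10 genes was higher (*Lcn2*) and 2 were lower (*Saa3* and *Orm1*). Of all genes tested, 43.7% were called in this comparison, 21.6% higher and 22.1% lower, so that 3 of 10 was no larger than the share of genes in general. The median log2 fold change was -0.25 over the 10 genes and -0.032 over all genes. The 3 mice of each genotype did not overlap for 4 of the 10 (*Saa3*, *Orm1*, *Hp* and *Lcn2*), against 55.5% of all genes. Scaling by total counts alone, an alternative chosen after seeing the data, moved the median of all genes to 0.55 and the calls from 3006 higher and 3074 lower to 5926 higher and 1103 lower. *Lcn2* and *Saa3* kept their calls under that scaling and *Orm1* did not.

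When *Atg7*-KO;p62T352A livers were compared with *Atg7*-KO livers, *Saa3* and *Orm1* were higher and *Lcn2* was lower, again 3 of 10. The share of all genes called was 51.0%, with 24.7% higher and 26.2% lower. The same 3 genes were those without overlap between the mice, against 73.2% of all genes. The median was 0.26 over the 10 genes and 0.0021 over all genes. With total counts alone the median of all genes moved to -0.57, with 1342 genes higher and 6138 lower in place of 3443 and 3652, and all 3 calls held. Against cont., *Atg7*-KO;p62T352A livers differed in 1 of the 10 genes, *Lcn2*, which was higher, while 11.6% of all genes were called, 6.25% higher and 5.34% lower. The median was 0.61 over the 10 genes and 0.0044 over all genes. No overlap was seen for 4 of the 10 (*Orm1*, *Hp*, *Hpx* and *Lcn2*), against 26.6% of all genes. The comparisons share mice with each other, and their values stand side by side.

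**Figure D1:**
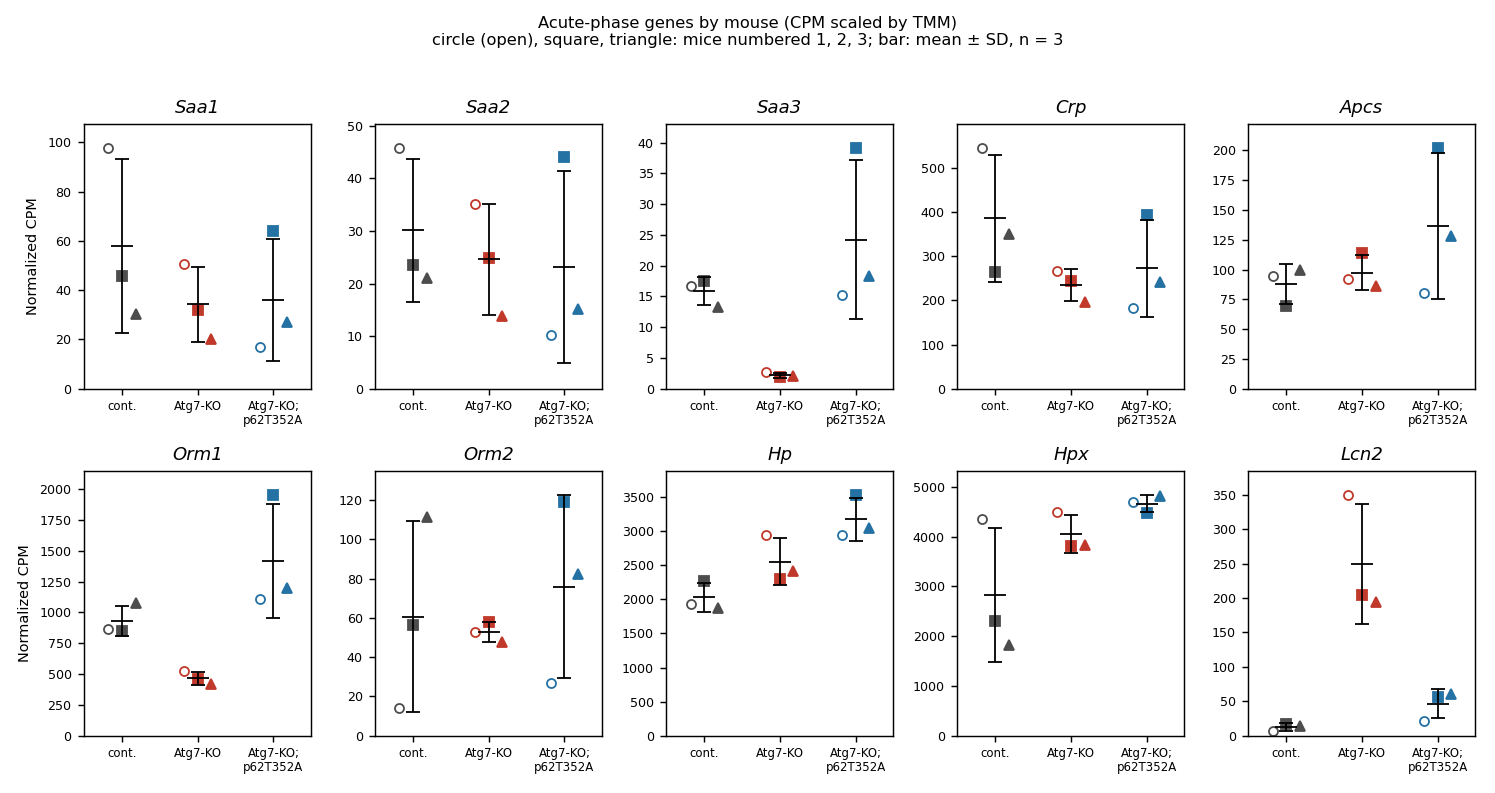
Normalized CPM (linear axis from 0) of the 10 acute-phase genes in each mouse, by genotype, with symbols for the mouse number and bars for the mean ± SD (n = 3). *Saa3* and *Orm1* are lowest in the 3 *Atg7*-KO mice and *Lcn2* is highest in them, while the genotypes overlap for *Saa1*, *Saa2*, *Crp*, *Apcs* and *Orm2*.

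The 3 serum amyloid A genes did not share a pattern. *Saa1* and *Saa2* encode the amyloid proteins that hepatocytes secrete in the acute phase, and *Saa3* is known for its expression outside hepatocytes as well, in macrophages and fat. All 3 lie in 1 cluster on chromosome 7 (GRCm38, the mm10 build): *Saa3* at chr7:46711998-46715700 on the minus strand, *Saa1* at chr7:46740497-46742980 on the minus strand and *Saa2* at chr7:46751790-46754313 on the plus strand. Their promoters are shown because the members of the cluster differed in these livers. The sequences are the 250 bases before the start site from RefSeq on GRCm38.p6, 5′ to 3′ on the gene's own strand, and capitals mark the C/EBP motif TTGCNNAA on either strand. *Saa1* is at chr7:46742981-46743230, minus strand, *Saa2* at chr7:46751583-46751832, plus strand and *Saa3* at chr7:46715677-46715926, minus strand.
Saa1: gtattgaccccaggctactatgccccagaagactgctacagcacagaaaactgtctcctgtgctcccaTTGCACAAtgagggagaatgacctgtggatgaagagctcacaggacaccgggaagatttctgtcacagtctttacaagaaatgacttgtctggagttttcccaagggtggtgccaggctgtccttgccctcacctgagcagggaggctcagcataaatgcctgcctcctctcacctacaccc
Saa2: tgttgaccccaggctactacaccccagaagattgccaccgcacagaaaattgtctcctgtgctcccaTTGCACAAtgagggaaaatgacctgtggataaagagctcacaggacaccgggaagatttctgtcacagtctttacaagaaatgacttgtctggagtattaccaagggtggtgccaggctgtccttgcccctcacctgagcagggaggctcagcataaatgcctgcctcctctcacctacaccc
Saa3: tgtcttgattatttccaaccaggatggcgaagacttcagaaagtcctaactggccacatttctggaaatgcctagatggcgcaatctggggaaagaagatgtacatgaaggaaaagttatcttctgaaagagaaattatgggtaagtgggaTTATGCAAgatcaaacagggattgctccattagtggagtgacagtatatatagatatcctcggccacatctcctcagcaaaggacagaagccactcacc
Over the 300 bases that reach 50 bases past the start site, *Saa1* and *Saa2* were identical in 287 of 301 aligned columns (95.3%), whereas *Saa1* and *Saa3* were identical in 54.2%. The promoters of *Saa1* and *Lcn2*, which lies on another chromosome, were also identical in 54.2%. The motif began 182 bases before the start site in *Saa1*, 183 in *Saa2* and 99 in *Saa3*. The start sites are those of RefSeq, and the printed stretches of *Saa2* and *Saa3* reach into the gene positions given above.

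*Saa3* was at 16.7, 17.6 and 13.3 CPM in cont., 2.66, 1.89 and 2.01 in *Atg7*-KO and 15.2, 39.1 and 18.4 in *Atg7*-KO;p62T352A mice. Each *Atg7*-KO mouse was below every other mouse, and mouse 2 of the *Atg7*-KO;p62T352A group was the highest. The gene was 7.26-fold lower in *Atg7*-KO than in cont. livers (log2 fold change -2.86, SE 0.36, edgeR FDR 0.00030). It was 11.1-fold higher in *Atg7*-KO;p62T352A than in *Atg7*-KO livers (log2 fold change 3.47, SE 0.37, edgeR FDR 0.000118). Against cont. the log2 fold change of *Atg7*-KO;p62T352A livers was 0.61 (SE 0.33, edgeR FDR 0.261), with overlapping mice. Both calls held in all 20 alternatives, and with total counts alone the second log2 fold change of *Saa3* was 2.87.

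*Saa1* was at 97.5, 45.6 and 30.4 CPM in cont., 50.4, 32.1 and 20.3 in *Atg7*-KO and 17.0, 64.2 and 27.2 in *Atg7*-KO;p62T352A mice. *Saa2* was at 45.7, 23.5 and 21.1, then 35.1, 24.9 and 13.9, and 10.2, 44.1 and 15.1. For both genes the highest mouse was mouse 1 in cont. and *Atg7*-KO livers and mouse 2 in *Atg7*-KO;p62T352A livers, and the spread within a genotype covered the differences between them. The log2 fold changes of *Saa1* were -0.76 in *Atg7*-KO against cont. (SE 0.56, edgeR FDR 0.289), 0.075 in *Atg7*-KO;p62T352A against *Atg7*-KO (FDR 0.917) and -0.68 against cont. (FDR 0.462). Those of *Saa2* were -0.30, -0.088 and -0.38, with FDR 0.677, 0.902 and 0.693. Without the mice numbered 1, the log2 fold changes against cont. in *Atg7*-KO;p62T352A livers turned to 0.26 for *Saa1* and 0.41 for *Saa2*. Of the 75-base stretches of *Saa1* transcripts, 4.67% also occur in *Saa2*, so that some reads could have been assigned to either gene. Older usage exchanged the names of these 2 genes, and the symbols here are those of the table.

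The pentraxins were not called in any comparison. *Crp* encodes C-reactive protein, which is only a minor acute-phase protein in the mouse, and *Apcs* encodes serum amyloid P, the major pentraxin of the acute phase in this species. *Crp* (chr1:172698055-172833031) was at 544, 264 and 349 CPM in cont., 267, 243 and 196 in *Atg7*-KO and 182, 394 and 241 in *Atg7*-KO;p62T352A mice. Of the *Atg7*-KO mice, 2 lay below the lowest cont. mouse and mouse 1 just above it (267 against 264). The log2 fold changes were -0.71 for *Atg7*-KO against cont. (SE 0.34, edgeR FDR 0.107), 0.21 for *Atg7*-KO;p62T352A against *Atg7*-KO (FDR 0.614) and -0.50 against cont. (FDR 0.360). *Apcs* (chr1:172893961-172895041) was at 94.8, 69.1 and 99.8 CPM in cont., 92.2, 114 and 86.4 in *Atg7*-KO and 80.3, 202 and 128 in *Atg7*-KO;p62T352A mice. The genotypes overlapped, and the log2 fold changes were 0.15, 0.49 and 0.64 in the same order (SE 0.31 each, edgeR FDR 0.713, 0.203 and 0.209). Without the mice numbered 1 the last of these reached 0.97 (edgeR FDR 0.0437, over 20 alternatives 0.0437 to 0.830).

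**Figure D2:**
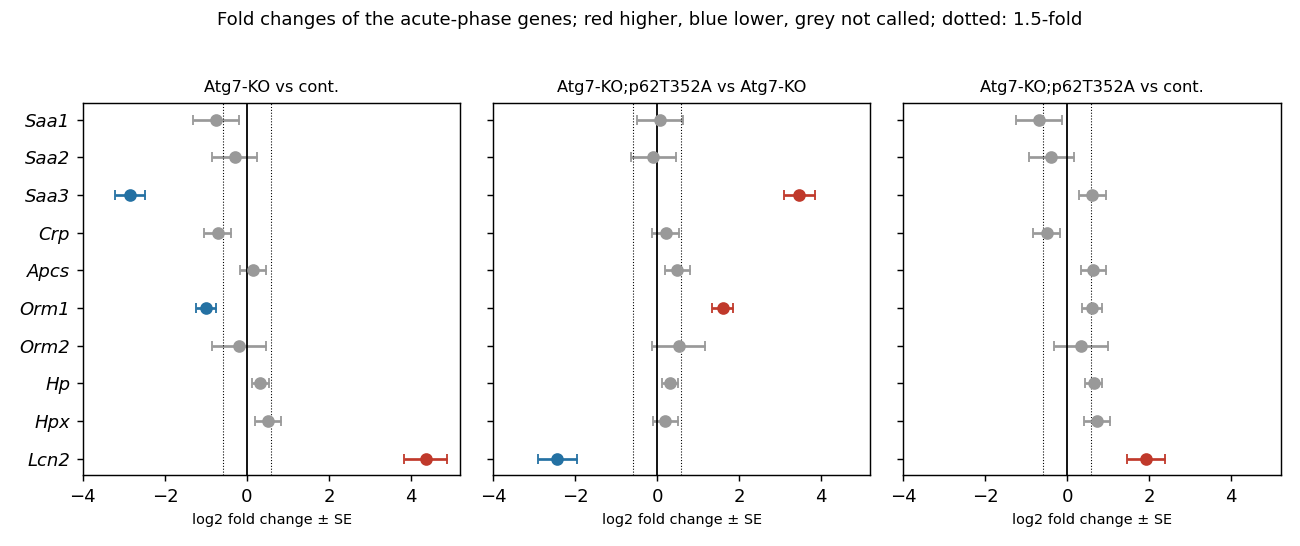
Log2 fold change ± SE (x axis) of each of the 10 genes in the 3 comparisons, with called genes in red (higher) or blue (lower), genes that were not called in grey, and dotted lines at a fold change of 1.5. *Saa3* and *Orm1* lie left of 0 in *Atg7*-KO against cont. livers and right of 0 in *Atg7*-KO;p62T352A against *Atg7*-KO livers, and *Lcn2* lies on the opposite side from them in both.

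The orosomucoid genes encode alpha-1-acid glycoproteins, carriers of basic and neutral small molecules. *Orm1* (chr4:63344560-63348163, plus strand) was at 867, 852 and 1073 CPM in cont., 522, 458 and 418 in *Atg7*-KO and 1106, 1951 and 1198 in *Atg7*-KO;p62T352A mice. The genotypes did not overlap, with *Atg7*-KO lowest and *Atg7*-KO;p62T352A highest. *Orm1* was 2.00-fold lower in *Atg7*-KO than in cont. livers (log2 fold change -1.00, SE 0.25, edgeR FDR 0.0100). This call was lost under glmTreat, which tests against a fold change of 1.5 (edgeR FDR 0.0690), and with total counts alone (log2 fold change -0.44, FDR 0.148), the alternatives ranging from FDR 0.000334 to 0.148. *Orm1* was 3.04-fold higher in *Atg7*-KO;p62T352A than in *Atg7*-KO livers (log2 fold change 1.61, SE 0.26, edgeR FDR 0.000795), which held in all 20 alternatives, with 1.02 for *Orm1* under total counts alone. Against cont. its log2 fold change was 0.61 (SE 0.25, edgeR FDR 0.146).

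*Orm2* (chr4:63362449-63365878, plus strand), the neighbour of *Orm1*, spread more widely. It was at 14.2, 56.6 and 111 CPM in cont., 52.7, 57.9 and 47.9 in *Atg7*-KO and 26.6, 119 and 82.2 in *Atg7*-KO;p62T352A mice. In both genotypes with a wide spread the lowest mouse was number 1. The log2 fold changes were -0.20, 0.52 and 0.33 (SE 0.65 each, edgeR FDR 0.823, 0.519 and 0.787). Without the mice numbered 1, *Orm2* was higher in *Atg7*-KO;p62T352A than in *Atg7*-KO livers by a log2 fold change of 0.93 (edgeR FDR 0.0371, over 20 alternatives 0.0371 to 0.961). Of the 75-base stretches, 13.8% of those of *Orm1* occur in *Orm2*, so that some reads could have been assigned to either gene. With means of 931 CPM for *Orm1* and 60.7 for *Orm2* in cont. livers, wrongly assigned reads would weigh far more on *Orm2*. How many reads were wrongly assigned was not tested.

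Haptoglobin and hemopexin, the scavengers of hemoglobin and heme, were not called in any comparison, and their means were lowest in cont. and highest in *Atg7*-KO;p62T352A livers. *Hp* (chr8:109575128-109579172, minus strand) was at 1936, 2274 and 1880 CPM in cont., 2945, 2294 and 2417 in *Atg7*-KO and 2944, 3529 and 3048 in *Atg7*-KO;p62T352A mice. The cont. mice lay below all others. The log2 fold changes were 0.33 for *Atg7*-KO against cont. (SE 0.20, edgeR FDR 0.207), 0.31 for *Atg7*-KO;p62T352A against *Atg7*-KO (FDR 0.213) and 0.64 against cont. (FDR 0.0692). DESeq2 called the last of these (log2 fold change 0.59, adjusted p = 0.00730, over 20 alternatives 0.00730 to 0.745). With total counts alone *Hp* was higher in *Atg7*-KO than in cont. livers by 0.89 (FDR 0.00455, over 20 alternatives 0.00455 to 0.907), and its sign in *Atg7*-KO;p62T352A against *Atg7*-KO livers turned to -0.26.

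*Hpx* (chr7:105591613-105600137, minus strand) was at 4363, 2298 and 1817 CPM in cont., 4485, 3819 and 3828 in *Atg7*-KO and 4693, 4471 and 4810 in *Atg7*-KO;p62T352A mice. Mouse 1 of the cont. group stood well above the other cont. mice and overlapped the *Atg7*-KO mice, while the *Atg7*-KO;p62T352A mice lay above all cont. mice. The log2 fold changes were 0.52 (SE 0.31, edgeR FDR 0.198), 0.20 (FDR 0.598) and 0.72 (FDR 0.165) in the same order of comparisons. Its calls depended on 1 library and on the scaling: without cont. mouse 1 it was called higher in *Atg7*-KO (log2 fold change 0.97, edgeR FDR 0.00253, over 20 alternatives 0.00253 to 0.600) and in *Atg7*-KO;p62T352A livers (1.18, FDR 0.00460, over 20 alternatives 0.00460 to 0.711). Leaving out the mice numbered 1 of every genotype gave 0.89 and 1.17, both called. With total counts alone the log2 fold change was 1.14 in *Atg7*-KO against cont. livers (called, edgeR FDR 0.00391) and turned to -0.37 in *Atg7*-KO;p62T352A against *Atg7*-KO livers.

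*Lcn2*, made by hepatocytes in the acute phase and stored in neutrophil granules, had the largest fold change of the 10 genes in *Atg7*-KO against cont. livers. It lies at chr2:32384633-32388252 on the minus strand. Its promoter, shown because the gene moved against *Saa3* and *Orm1*, is the RefSeq stretch at chr2:32387740-32387989, minus strand (GRCm38.p6), with the C/EBP motif in capitals from 216 to 209 bases before the start site. This stretch lies inside the gene position given above, which reaches further upstream, and the distances hold for the RefSeq start site only.
Lcn2: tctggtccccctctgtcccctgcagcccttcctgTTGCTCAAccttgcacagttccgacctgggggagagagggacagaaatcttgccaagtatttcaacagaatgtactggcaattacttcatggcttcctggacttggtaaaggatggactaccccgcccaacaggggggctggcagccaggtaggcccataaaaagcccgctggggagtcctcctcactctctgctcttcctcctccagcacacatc
*Lcn2* was at 6.07, 16.7 and 14.0 CPM in cont., 349, 204 and 195 in *Atg7*-KO and 21.9, 56.6 and 60.0 in *Atg7*-KO;p62T352A mice. The genotypes did not overlap, with cont. lowest, *Atg7*-KO;p62T352A between and *Atg7*-KO highest. In counts, the lowest *Atg7*-KO mouse had 4564 and the highest cont. mouse 177.

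*Atg7*-KO livers had 20.5 times the *Lcn2* level of cont. livers (log2 fold change 4.36, SE 0.51, edgeR FDR 0.000209). It was 5.40-fold lower in *Atg7*-KO;p62T352A than in *Atg7*-KO livers (log2 fold change -2.43, SE 0.47, edgeR FDR 0.00218). Both calls held in all 20 alternatives, and without the mice numbered 1 the log2 fold changes of *Lcn2* were 3.70 and -1.77. Against cont., *Atg7*-KO;p62T352A livers were 3.79-fold higher (log2 fold change 1.92, SE 0.47, edgeR FDR 0.0298). That call was lost in 9 of 20 alternatives, whose FDR ranged from 0.000866 to 0.117: without cont. mouse 2 (0.0527) or 3 (0.0511), *Atg7*-KO mouse 2 (0.0548) or 3 (0.0540), *Atg7*-KO;p62T352A mouse 2 (0.0814) or 3 (0.102), with total counts alone (0.0513), with only these 2 genotypes in the fit (0.0916) and under glmTreat (0.117). In these 9 the log2 fold change was 1.69 to 2.18.

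Several markers of neutrophils, macrophages, cholangiocytes, and endothelial and stellate cells were also called in these comparisons. Of all genes, 21.6% were higher and 22.1% lower in *Atg7*-KO than in cont. livers. Between *Atg7*-KO;p62T352A and *Atg7*-KO livers, 24.7% of all genes were higher and 26.2% lower. The table holds 12 of the neutrophil markers, and 4 of the 7 that were tested were higher in *Atg7*-KO than in cont. livers (*Mmp8*, *Ngp*, *S100a8* and *S100a9*), while 3 of the 7 were lower in *Atg7*-KO;p62T352A than in *Atg7*-KO livers (*Ngp*, *Mmp9* and *S100a9*). The 12 markers had a summed level of 6.02 to 12.3 CPM in cont., 14.9 to 24.1 in *Atg7*-KO mice and 8.69 to 11.4 in *Atg7*-KO;p62T352A mice. *S100a8*, which encodes a calcium-binding protein of the neutrophil cytosol, was at 0.570 ± 0.109, 2.41 ± 1.28 and 1.34 ± 0.461 (mean ± SD, n = 3 each), and *Ly6g* has no row in the table. The granule genes *Mpo*, *Elane*, *Ltf* and *Camp* did not pass the filter, with at most 1.06 CPM in any mouse. Of 12 macrophage markers 9 were higher and 1 lower in *Atg7*-KO than in cont. livers, and 2 were higher and 9 lower in *Atg7*-KO;p62T352A than in *Atg7*-KO livers, with a summed level of 347 to 507 CPM in cont., 1551 to 1646 in *Atg7*-KO mice and 269 to 585 in *Atg7*-KO;p62T352A mice. *Clec4f*, a Kupffer cell gene, was at 131 ± 22.0, 182 ± 9.94 and 126 ± 39.8 CPM and was not called, and *Adgre1*, a general macrophage marker, was at 13.4 ± 10.2, 80.8 ± 1.79 and 7.90 ± 0.486. The resident macrophage genes *Timd4* and *Marco* had their lowest mean in *Atg7*-KO livers, as *Saa3* did: *Timd4* was at 7.80 ± 1.98, 3.17 ± 0.882 and 7.51 ± 1.15 and was called lower, then higher, and *Marco* was at 6.62 ± 1.81, 4.81 ± 0.823 and 14.3 ± 7.51 and was called higher in *Atg7*-KO;p62T352A than in *Atg7*-KO livers only. *Vsig4*, of the same list, went the other way, at 31.8 ± 15.3, 89.0 ± 6.87 and 22.6 ± 8.87, and was called higher, then lower. *Cd163*, a macrophage receptor from another list, was at 14.7 ± 2.19, 2.25 ± 0.490 and 7.72 ± 3.57 and was called lower, then higher. Of 6 cholangiocyte markers 5 were higher in *Atg7*-KO than in cont. livers and 4 lower in *Atg7*-KO;p62T352A than in *Atg7*-KO livers. Their sum was 33.4 to 51.3, 826 to 1023 and 181 to 266 CPM, most of it from *Spp1* (means 33.8, 871 and 172). *Sox9* was at 4.87, 25.7 and 30.8 on average, and *Krt7* was not called in any comparison. Of 10 endothelial and stellate markers 6 were higher and 1 lower in *Atg7*-KO than in cont. livers. In *Atg7*-KO;p62T352A against *Atg7*-KO livers 0 of these 10 were higher and 7 lower. The part of these cells in the levels of *Lcn2* and *Saa3* was not tested.

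Per length of the transcript, hemopexin, haptoglobin and *Orm1* were the most abundant of the 10 and *Lcn2* and *Saa3* the least abundant in cont. livers. Levels are normalized CPM per kilobase (kb) of the gene's first numbered transcript in GENCODE. In cont. livers *Hpx* was at 1885, *Hp* at 1509 and *Orm1* at 1201, and the mice of *Hpx* overlapped with both, whereas those of *Hp* and *Orm1* did not. *Crp* followed at 228 and then *Saa1* (95.0), *Apcs* (90.5), *Orm2* (78.4) and *Saa2* (49.7), of which each overlapped with the next. The mice of *Crp*, from 156 to 321, lay below those of *Orm1* and overlapped with those of *Saa1*. *Saa3* (28.6, at most 31.7 in a mouse, below the lowest of *Saa2* at 34.8) and *Lcn2* (13.4, at most 18.3 in a mouse) came last. In *Atg7*-KO livers *Lcn2* followed *Orm1* at 272, with its lowest mouse at 213 above the highest of *Crp* at 157, and *Saa3* was last at 3.94. The *Atg7*-KO;p62T352A livers had *Lcn2* at 50.5 and *Saa3* at 43.7, with overlapping mice. Together the 10 genes accounted for 0.509% to 0.598% of the library in cont. mice, for 0.953% to 1.13% in *Atg7*-KO mice and for 0.776% to 0.914% in *Atg7*-KO;p62T352A mice. With TMM scaling the order of *Atg7*-KO and *Atg7*-KO;p62T352A mice turned, with mean summed levels of 6437, 7759 and 9865 CPM (cont. first).

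**Figure D3:**
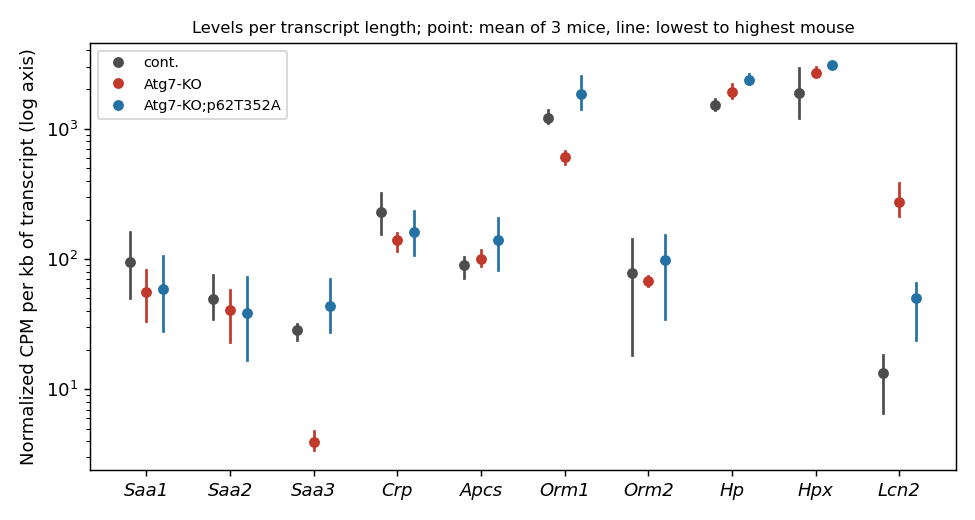
Normalized CPM per kb of transcript (log axis) of the 10 genes by genotype, with points for the mean of 3 mice and lines from the lowest to the highest mouse. *Lcn2* spans 13.4 in cont. to 272 in *Atg7*-KO livers and *Saa3* 28.6 to 3.94, while *Hp* and *Hpx* lie at 1509 and 1885 already in cont. livers.

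Promoters of 8 of the 10 genes were in the RefSeq table, without those of *Hp* and *Orm1*. The C/EBP motif TTGCNNAA was found on either strand in 6 of the 8 (*Hpx*, *Lcn2*, *Orm2*, *Saa1*, *Saa2* and *Saa3*) and in 10.8% of all 32851 promoters of the same 300 bases. *Saa3* and *Lcn2*, which moved in opposite directions, both hold it. The STAT motif TTCNNNGAA was found in 1 of 8 (*Apcs*) and in 8.30% of all promoters, and the IL-6 response element CTGGGA in 3 of 8 (*Apcs*, *Crp* and *Saa3*) and in 31.8%. The antioxidant response element TGACNNNGC, to which NRF2 binds, was found in 1 of 8 (*Hpx*) and in 12.4%. No match to the NF-kB consensus lay in the 8 windows, against 4.51% of all promoters. No matches overlapped each other, and a match describes the letters in the window, not a site in use.

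From a list of 22 other acute-phase proteins 21 were tested, of which 8 were lower and 3 higher in *Atg7*-KO than in cont. livers, with a median log2 fold change of -1.02 (of all genes, 22.1% were lower and 21.6% higher). The comparison of *Atg7*-KO;p62T352A with *Atg7*-KO livers had 7 higher and 4 lower, with a median of 0.62 (of all genes, 24.7% were higher and 26.2% lower). Among the lower genes, *Saa4*, the serum amyloid A gene that is expressed constitutively in the liver, was at 332 ± 96.4, 61.2 ± 3.68 and 318 ± 39.6 CPM (mean ± SD, n = 3 each). *Hamp*, which encodes the iron hormone hepcidin, was at 1238 ± 601, 178 ± 29.6 and 2029 ± 785. Their log2 fold changes in *Atg7*-KO against cont. livers were -2.44 (SE 0.23, edgeR FDR 7.11e-05) and -2.79 (SE 0.44, FDR 0.000977), and in *Atg7*-KO;p62T352A against *Atg7*-KO livers 2.38 and 3.51. *Serpina1a* and *Serpina1b*, antitrypsins of a multigene family, fell by 1.88 and 1.54 on the log2 scale in *Atg7*-KO livers, and 49.3% and 19.0% of their 75-base stretches occur in other genes, so that both are uncertain. The 3 higher genes were *Cd14*, the endotoxin co-receptor, *Il1rn*, the interleukin-1 receptor antagonist, and *Steap4*, a metalloreductase. *Cd14* was at 2.96 ± 0.766, 50.7 ± 4.96 and 3.80 ± 1.62 CPM. Against cont., *Atg7*-KO;p62T352A livers differed in 2 of the 21, while 11.6% of all genes were called (6.25% higher and 5.34% lower). Ceruloplasmin (*Cp*) was higher by a log2 fold change of 0.86, and *Serpina3m* was lower (log2 fold change -0.92).

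The negative acute-phase proteins, plasma proteins that decrease in inflammation, were lower in *Atg7*-KO than in cont. livers for 8 of 10 genes (22.1% of all genes), with a median of -1.24, and higher in *Atg7*-KO;p62T352A than in *Atg7*-KO livers for 8 of 10 (24.7% of all genes), with a median of 1.52. *Apoa2*, an apolipoprotein of high-density lipoprotein, had log2 fold changes of -2.71 and 2.84. Those of *Alb*, albumin, were -1.26 (SE 0.32, edgeR FDR 0.00959) and 1.60 (SE 0.32, edgeR FDR 0.00255). Neither was called in *Atg7*-KO;p62T352A against cont. livers, where edgeR called 0 of the 10 (1 at an unadjusted p under 0.05, and 1 by DESeq2). Of all genes, 11.6% were called in that comparison. All 8 hepatocyte markers were also lower in *Atg7*-KO than in cont. livers, with a median of -1.31, and 3 of them are in this list (*Alb*, *Ttr* and *Apoa1*). The part of hepatocyte RNA as a whole in the levels of the 10 acute-phase genes was not tested.

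Among the signals that drive acute-phase genes, receptor genes were called in both directions in *Atg7*-KO against cont. livers, and *Stat3* was not called. Of 14 IL-6 family genes tested, 2 were higher (*Lif* and *Clcf1*) and 4 lower (*Lifr*, *Il6ra*, *Il11ra1* and *Pias3*) in *Atg7*-KO than in cont. livers. Of all genes, 21.6% were higher and 22.1% lower. The receptor chains *Il6st* and *Osmr* were not called there (log2 fold changes 0.24 and 0.60). In *Atg7*-KO;p62T352A against *Atg7*-KO livers 4 of the 14 were higher (*Il6ra*, *Lifr*, *Il11ra1* and *Pias3*). The 5 lower genes were *Lif*, *Osmr*, *Il6st*, *Jak2* and *Jak1*, while 24.7% of all genes were higher and 26.2% lower. *Il6ra*, the receptor chain that binds interleukin-6, was at 57.6 ± 27.3, 17.5 ± 0.760 and 71.1 ± 23.6 CPM, and *Lifr*, the receptor of leukemia inhibitory factor, at 555 ± 204, 89.5 ± 11.7 and 339 ± 76.5. Their log2 fold changes were -1.72 (SE 0.36, edgeR FDR 0.00398) and -2.63 (SE 0.31, FDR 0.000190) in *Atg7*-KO against cont. livers, and 2.02 and 1.92 in *Atg7*-KO;p62T352A against *Atg7*-KO livers. *Il6st*, the shared receptor chain gp130, was lower in *Atg7*-KO;p62T352A livers than in *Atg7*-KO livers (log2 fold change -1.03) and than in cont. livers (-0.79, edgeR FDR 0.0178). *Stat3* (104 ± 2.32, 101 ± 1.60 and 91.0 ± 9.49 CPM) and its feedback inhibitor *Socs3* (10.1 ± 7.37, 6.82 ± 0.842 and 9.40 ± 0.743) were not called. *Il6* had 0 to 2 counts in each mouse and was not tested. *Lif* had 1, 1 and 0 counts in cont., 52, 71 and 92 in *Atg7*-KO and 6, 1 and 3 in *Atg7*-KO;p62T352A mice.

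Of 22 IL-1, TNF and NF-kB genes tested, 8 were higher and 4 lower in *Atg7*-KO than in cont. livers, with a median of 0.36. Between *Atg7*-KO;p62T352A and *Atg7*-KO livers 4 were higher and 10 lower, with a median of -0.53. Of all genes, 43.7% and 51.0% were called in these comparisons. The higher genes in *Atg7*-KO livers included *Tnfrsf1a*, a TNF receptor (log2 fold change 0.66, edgeR FDR 0.00939). The lower genes in *Atg7*-KO livers included both chains of the interleukin-1 receptor. *Il1rap* was at 226, 119 and 101 CPM in cont., 32.5, 26.3 and 20.4 in *Atg7*-KO and 198, 126 and 131 in *Atg7*-KO;p62T352A mice (log2 fold changes -2.49 and 2.52 in the first 2 comparisons). *Il1r1* was at 31.2, 299 and 127, then 38.7, 30.7 and 30.4, and 98.5, 58.6 and 79.9, and was called lower in *Atg7*-KO against cont. livers (log2 fold change -2.19, SE 0.62, edgeR FDR 0.0169) although cont. mouse 1 overlapped. *Tnfaip3*, the NF-kB inhibitor A20, was at 3.19 ± 0.952, 18.7 ± 0.812 and 3.01 ± 0.828. *Nfkbia*, another NF-kB inhibitor, went the other way, at 103 ± 38.7, 47.7 ± 3.15 and 171 ± 56.0. It was called lower, then higher (log2 fold changes -1.11 and 1.85). *Tnf* had 0, 2 and 2 counts in cont., 21, 38 and 28 in *Atg7*-KO and 3, 6 and 18 in *Atg7*-KO;p62T352A mice, and *Il1b* was at 2.53 ± 2.20, 4.49 ± 0.433 and 1.07 ± 0.250 CPM.

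**Figure D4:**
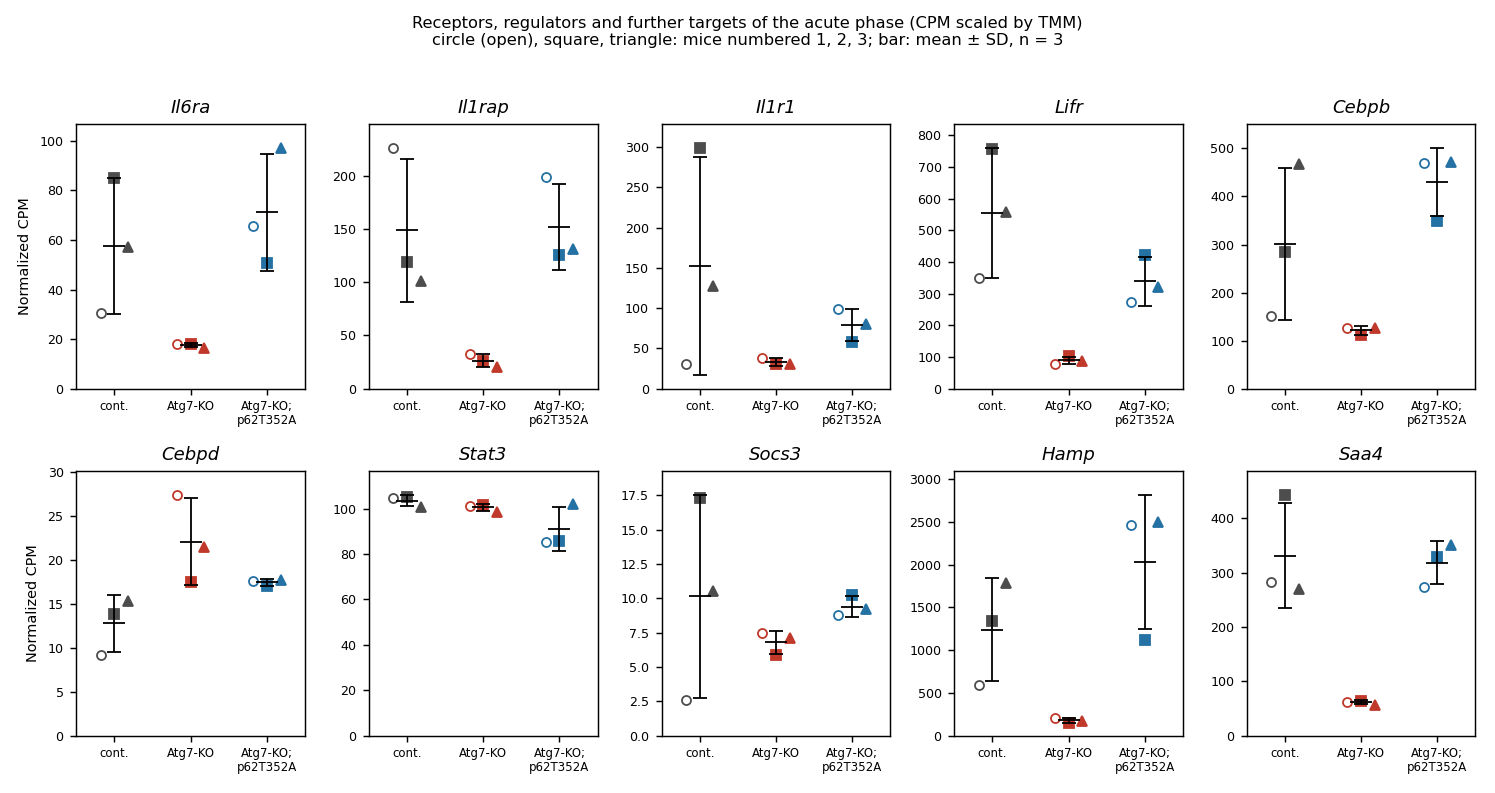
Normalized CPM (linear axis from 0) of receptors, regulators and further acute-phase genes in each mouse, by genotype, with symbols for the mouse number and bars for the mean ± SD (n = 3). *Il6ra*, *Il1rap*, *Lifr*, *Hamp* and *Saa4* are lower in all *Atg7*-KO mice than in any other mouse, and *Stat3* lies at 104, 101 and 91.0 on average.

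The transcription factors of the list had 1 of 10 higher (*Cebpd*) and 2 lower, among them *Cebpb*, in *Atg7*-KO than in cont. livers. Of all genes, 21.6% were higher and 22.1% lower in that comparison. *Cebpb*, the C/EBP factor that interleukin-6 activates, was at 152, 284 and 467 CPM in cont., 127, 111 and 126 in *Atg7*-KO and 469, 348 and 472 in *Atg7*-KO;p62T352A mice. Cont. mice spread widely and each lay above the *Atg7*-KO mice, with log2 fold changes of -1.31 (SE 0.35, edgeR FDR 0.0129) against cont. and 1.82 (SE 0.35, FDR 0.00227) for *Atg7*-KO;p62T352A against *Atg7*-KO livers. *Cebpd* was at 12.8 ± 3.23, 22.1 ± 4.99 and 17.4 ± 0.380 (0.80 on the log2 scale in *Atg7*-KO against cont. livers, FDR 0.0190), and *Cebpa* at 226 ± 66.8, 171 ± 4.88 and 308 ± 36.8. In *Atg7*-KO;p62T352A against *Atg7*-KO livers 5 of 10 were higher (24.7% of all genes), among them *Cebpb* and *Cebpa*, and 0 lower (26.2% of all genes). Against cont., edgeR called 0 of 10 (0 at an unadjusted p under 0.05, and 0 by DESeq2) and 11.6% of all genes.

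Of 15 receptors and clearance genes for the 10 proteins, 9 were higher and 2 lower in *Atg7*-KO than in cont. livers (43.7% of all genes were called), with a median of 1.62, and in *Atg7*-KO;p62T352A against *Atg7*-KO livers 1 was higher and 10 were lower (51.0% of all genes were called), with a median of -1.38. The 2 lower genes were *Cd163*, the macrophage receptor for haptoglobin bound to hemoglobin, and *Lrp1*, the receptor for hemopexin bound to heme. *Cd163* was at 16.4, 15.4 and 12.2 CPM in cont., 2.66, 2.38 and 1.71 in *Atg7*-KO and 5.64, 11.8 and 5.68 in *Atg7*-KO;p62T352A mice, so that the genotypes did not overlap (log2 fold changes -2.71 and 1.78). *Lrp1* was at 639 ± 66.6, 340 ± 21.2 and 470 ± 35.3 (log2 fold change -0.91 in *Atg7*-KO against cont. livers, edgeR FDR 0.00239). *Hmox1*, which breaks down heme, rose by a log2 fold change of 1.62 in *Atg7*-KO livers and fell by 2.21 on that scale in *Atg7*-KO;p62T352A against *Atg7*-KO livers. *Tlr2*, for which serum amyloid A is a ligand, had log2 fold changes of 3.59 and -3.39, and *Slc22a17*, the lipocalin 2 receptor, was not called, with a log2 fold change of -1.12 in *Atg7*-KO against cont. livers (edgeR FDR 0.101).

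**Figure D5:**
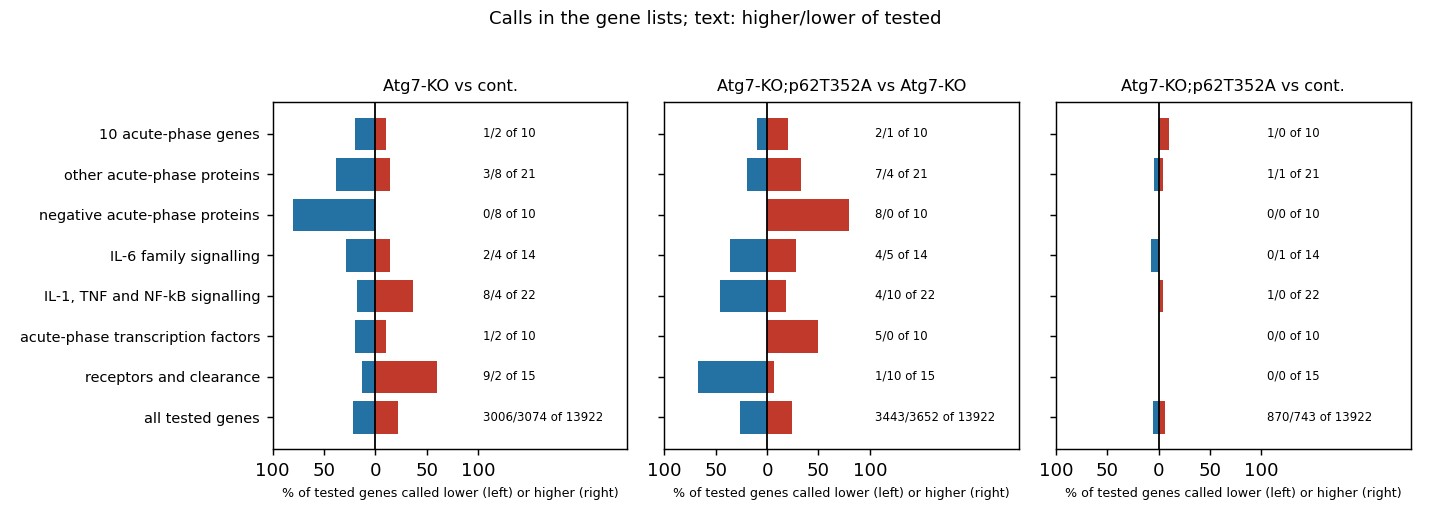
Percentage of the tested genes called lower (blue, left) or higher (red, right) in each list and over all tested genes, for the 3 comparisons, with the counts beside the bars. Of the 10 acute-phase genes 3, 3 and 1 were called, against 43.7%, 51.0% and 11.6% of all genes.

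Across the 9 mice, the genes whose log2 CPM followed *Lcn2* most closely were *Capg*, *Arpc1b* and *Cyth4*, with Pearson r between 0.987 and 0.989, among 8499 genes with a mean of at least 10 CPM. Those of *Saa3* were *BC029214* (0.995), *2310039H08Rik* (0.989) and *Hebp1* (0.983), and those of *Orm1* were *Cnpy2* and *Igfbp4* (0.987 each) and *Clpb* (0.985). For *Saa1* they were *Grcc10*, *B4gat1* and *Sarnp* (0.907 to 0.919) and for *Saa2* *Srp54a*, *Chchd1* and *Sarnp* (0.900 to 0.951). *Psmb10*, *Slc22a27* and *Orm3* came nearest to *Orm2* (0.948 to 0.969), *Med10*, *Fam98b* and *Pddc1* to *Hp* (0.915 to 0.961) and *Gtf2f2*, *Set* and *Nifk* to *Hpx* (0.966 to 0.967). The nearest were *Urah*, *Wfdc21* and *Oaz1* for *Crp* (0.949 to 0.968) and *Vamp8*, *Bsg* and *S100a16* for *Apcs* (0.889 to 0.925). The correlations are over the same 9 libraries of 3 genotypes and describe likeness only.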

How the data were processed

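Liver RNA of 3 cont., 3 Atg7-KO and 3 Atg7-KO;p62T352A mice was sequenced by the authors after poly(A) selection as 75-bp single-end reads. The deposited table holds unscaled expected counts, estimated per gene by the authors with Trim Galore, STAR and RSEM on mm10. Versions and the strand setting are not given in the sources used here, so overlapping genes on opposite strands cannot be told apart. The paper names TRIzol and the labels name a column kit for RNA extraction. Columns were assigned by the genotype and mouse number in the labels. All 24411 rows name a gene.

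Expected counts were rounded and analyzed in R 4.3.3 with edgeR 4.0.16 (filterByExpr by genotype, TMM, glmQLFit and glmQLFTest, 1 fit over 3 genotypes) and two-sided tests. SE is derived from the F statistic. DESeq2 1.42.0 was an alternative, named in the study's methods. Totals were 9671080 to 23285132 counts, and replicates differed beyond counting noise (chi-square per degree of freedom 13.3 to 305). Of 197 genes simulated at a 4-fold change in Atg7-KO against cont., 91.4% were recovered among 13666 genes, and 11 of 13469 unchanged genes were called. All genes were simulated at the same dispersion of 0.08, so the share recovered does not describe genes with a wider spread or a smaller change.

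The 10 genes and all gene lists were chosen with earlier results of these data known. Genes named are the 10, up to 4 called genes per list, direction and comparison with the largest change, a fixed set of cytokines, receptors, factors and markers, and the 3 genes most like each of the 10. *Mpo*, *Elane*, *Ltf* and *Camp* and the other genes named outside this rule were added after their values were seen. A called member of the transcription factor list is not reported here by name. Positions are from GENCODE vM21 and promoters from RefSeq (GRCm38.p6), read with Python 3.11.15. Alternatives were DESeq2, its size factors, upper-quartile scaling, no filter, a minimum of 10 counts per mouse, the mouse number as replicate block, the 20 genes with most counts left out, glmTreat, only 2 genotypes per fit, the mice numbered 1 left out, each mouse left out in turn and, added after seeing the data, total counts alone.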

Additional observations from a re-analysis of the deposited data

How the results depend on the processing

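Of the called log2 fold changes of single genes, those of *Saa3* and *Lcn2* in *Atg7*-KO against cont. livers and those of *Saa3*, *Orm1* and *Lcn2* in *Atg7*-KO;p62T352A against *Atg7*-KO livers kept direction and call in all 20 alternatives, and the cause of the changes below was not tested. Total counts alone turned *Atg7*-KO;p62T352A against *Atg7*-KO to -0.37 (*Hpx*), -0.26 (*Hp*), -0.38 (*Crp*), -0.52 (*Saa1*), -0.099 (*Apcs*) and -0.058 (*Orm2*), and *Atg7*-KO against cont. to 0.32 (*Saa2*) and 0.29 (*Orm2*); *Saa1* in the former turned to -0.060 with upper-quartile scaling and -0.0049 with at least 10 counts. Without the mice numbered 1, *Saa2* turned to 0.61 against *Atg7*-KO and 0.41 against cont., *Saa1* to 0.26 and *Crp* to 0.050 against cont. in *Atg7*-KO;p62T352A livers. The genotypes share the mouse numbers of the labels. Because the numbers are not described as pairs, they were not taken as pairs, and the replicate block was an alternative. Deviations of same-numbered mice from their genotype mean correlated at 0.22, -0.030 and 0.25 on average for numbers 1, 2 and 3. In both other genotypes 5 of 9 mice correlated best with their own number (1 of 9 would for unrelated numbers), a hint from the data that some numbers may be shared. In every genotype the mice numbered 1 were low in *Xist* and high in *Ddx3y*, and likeness by number cannot be told apart from this. The replicate block turned *Orm2* in *Atg7*-KO against cont. livers to 0.26 and changed no other direction or call of the 10 genes, with 5753, 6994 and 988 genes called in the 3 comparisons in place of 6080, 7095 and 1613, and it left 0 calls among the other acute-phase proteins against cont. in *Atg7*-KO;p62T352A livers.

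In *Atg7*-KO against cont. livers the higher genes of the 10 numbered 2 without the mice numbered 1 and 3 with total counts alone, and the lower genes 1 under glmTreat and 1 with total counts alone. In *Atg7*-KO;p62T352A against cont. livers the higher genes numbered 2 with DESeq2, 0 under glmTreat, 0 with only 2 genotypes, 3 without the mice numbered 1 and 0 with total counts alone. In the lists, glmTreat left 6 of the IL-1, TNF and NF-kB genes called in *Atg7*-KO against cont. livers, and in *Atg7*-KO;p62T352A against *Atg7*-KO livers 7 other acute-phase proteins, 6 IL-1, TNF and NF-kB genes and 2 transcription factors (3 with total counts alone). Leaving out the 20 genes with the most counts, which removed list members, left 3 negative acute-phase proteins in each of these comparisons. In *Atg7*-KO;p62T352A against cont. livers the called other acute-phase proteins numbered 0 (glmTreat, 2 genotypes), 1 (upper quartile, no filter) or 4 (without the mice numbered 1), IL-6 family genes 0 (glmTreat, 2 genotypes), 2 (DESeq2's size factors, upper quartile, total counts), 3 (DESeq2) or 6 (without the mice numbered 1), IL-1, TNF and NF-kB genes 0 (glmTreat, 2 genotypes) or 2 (DESeq2, without the mice numbered 1), transcription factors 2 and receptors 1 (without the mice numbered 1), and receptors 2 and negative acute-phase proteins 1 (DESeq2). With total counts alone the summed level of the 10 genes was 10120 CPM in *Atg7*-KO and 8621 in *Atg7*-KO;p62T352A mice.

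Each mouse left out in turn gave these ranges. In *Atg7*-KO against cont. livers the numbers called were 7 to 13 IL-1, TNF and NF-kB genes and 1 to 2 of the 10 genes higher. Log2 fold changes that turned sign there ranged over *Apcs* -0.073 to 0.24, *Orm2* -0.67 to 0.58 and *Saa2* -0.64 to 0.14. In *Atg7*-KO;p62T352A against *Atg7*-KO livers the numbers called were 3 to 5 transcription factors and 7 to 12 other acute-phase proteins. Log2 fold changes that turned sign there ranged over *Crp* -0.15 to 0.44, *Saa1* -0.63 to 0.46 and *Saa2* -0.95 to 0.27. In *Atg7*-KO;p62T352A against cont. livers the numbers called were 0 to 3 IL-1, TNF and NF-kB genes, 0 to 4 IL-6 family genes, 0 to 2 transcription factors, 0 to 2 of the 10 genes higher, 0 to 3 other acute-phase proteins and 0 to 1 receptors. Log2 fold changes that turned sign there ranged over *Orm2* -0.15 to 1.11 and *Saa2* -1.25 to 0.053.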

Other observations

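Within a genotype, mice high in one acute-phase gene were often high in another. As deviations from the genotype mean over the 9 mice, log2 CPM of *Saa1* and *Saa2* had a Pearson r of 0.971, *Saa2* and *Crp* 0.912, *Saa1* and *Crp* 0.878, and *Saa2* and *Saa3* 0.851. *Orm2* and *Hpx* had an r of -0.80. The mice share libraries and depth with each gene, and *Saa1* and *Saa2* share sequence, so these values are descriptions only. *Hpx* alone took 54.6% of the counts of the 10 genes in cont. mouse 1, against 38.8% and 33.6% in cont. mice 2 and 3, 51.0% to 53.0% in *Atg7*-KO mice, and 41.1% to 51.6% in *Atg7*-KO;p62T352A mice. The share of *Lcn2* was 0.0761% to 0.283% in cont. mice, 2.69% to 3.97% in *Atg7*-KO mice, and 0.241% to 0.623% in *Atg7*-KO;p62T352A mice.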
